A study of Sus scrofa with 12 samples.

Results

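PTGIS encodes prostacyclin synthase, the enzyme that turns prostaglandin H2 into prostacyclin (prostaglandin I2). It is described here across 12 RNA libraries of porcine oviduct epithelial cells, together with the cyclooxygenases, prostaglandin E synthases and prostanoid receptors of the same pathway. The gene set was taken by symbol from the deposited table: PTGIS itself, and the symbols PTGS1, PTGS2, PTGES, PTGES2, PTGES3, PTGER2, PTGER4, PTGFR and PTGIR. Of these 10 symbols, 8 had a row among 30461 gene rows, and PTGES2 and PTGER2 were not analysed here. PTGIS was chosen on its values in these same libraries, so its levels and fold changes are a description and carry no test. The other genes were chosen by their place in the pathway, but with earlier results of these data known.

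The series presents a protocol for making spheroids, which are cells gathered into 3-dimensional clusters in culture, and compares them with the cells they come from. Fresh cells (4 libraries) are oviduct cells obtained by scraping and lysed in the single-cell state, DMEM/F12 spheroids (4 libraries) were formed in DMEM/F12, and incubation medium spheroids (4 libraries) were formed in a second medium. The labels give the composition of neither medium, but the library names carry "FBS" for the first kind of spheroid and "Diff" for the second. No group carries a genetic change or drug in the labels, and the animals, their age and their cycle stage are not given. Nothing states whether the 4 replicates of a group came from separate animals or cultures, so p-values measure the spread between these samples, which may be technical.

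Prostaglandins are made from arachidonic acid that phospholipases free from membrane lipid. The cyclooxygenases PTGS1 and PTGS2 convert it to prostaglandin H2, and terminal synthases turn this common intermediate into prostacyclin, prostaglandin E2, prostaglandin F2α or thromboxane. The products leave the cell, act on G protein-coupled receptors, and are taken up again and broken down. In the oviduct, prostaglandins are known for effects on smooth muscle contraction and cilia, and prostacyclin made by the oviduct is known to act on early embryos.

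Library totals ran from 5045187 to 8603774 counts, and every spheroid library was deeper than every fresh-cell library. Levels are CPM, the count of a gene scaled to a common library size, computed with TMM-scaled library sizes. The smallest amount that can be bounded, 3 counts, corresponds to 0.348 to 0.588 CPM depending on the library. In the 14070 genes with enough counts to be tested, a gene is called where edgeR's quasi-likelihood test gave a Benjamini-Hochberg adjusted p under 0.05. The labelled cell type was checked against epithelial markers, and 9 rows for 8 of 10 such symbols, EPCAM, KRT8 and CDH1 among them, summed to 4277 to 4985 CPM in fresh cells, 7096 to 8775 CPM in DMEM/F12 spheroids and 5394 to 7685 CPM in the other spheroids. These are bulk libraries, in which fewer cells of a type and less RNA per cell cannot be told apart.

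PTGIS (ENSSSCG00025076422) was lowest in DMEM/F12 spheroids and, on average, highest in incubation medium spheroids. In fresh cells, replicates 1 to 4 stood at 26.5, 46.3, 24.5 and 43.7 CPM, a mean of 35.2 ± 11.3 (SD, n = 4). In DMEM/F12 spheroids they stood at 4.62, 11.3, 3.97 and 11.8 CPM, a mean of 7.91 ± 4.18 (SD, n = 4). In incubation medium spheroids the values were 22.4, 89.7, 57.5 and 113 CPM, a mean of 70.5 ± 39.2 (SD, n = 4). All 4 DMEM/F12 libraries lay below every other library. Incubation medium and fresh-cell libraries overlapped, because replicate 1 of the incubation medium spheroids was below all 4 fresh-cell libraries while replicates 2, 3 and 4 were above them.

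On the log2 scale PTGIS was 2.14 lower in DMEM/F12 spheroids than in fresh cells (fitted difference -2.14, SE 0.47). The difference between incubation medium spheroids and fresh cells was 1.00 (SE 0.41). Between the 2 kinds of spheroid it was 3.14 (SE 0.46), an 8.81-fold higher level in incubation medium. These fitted values describe PTGIS and decide nothing, and in the order of levels the neighbours whose libraries overlapped were fresh cells and incubation medium spheroids.

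**Figure D1:**
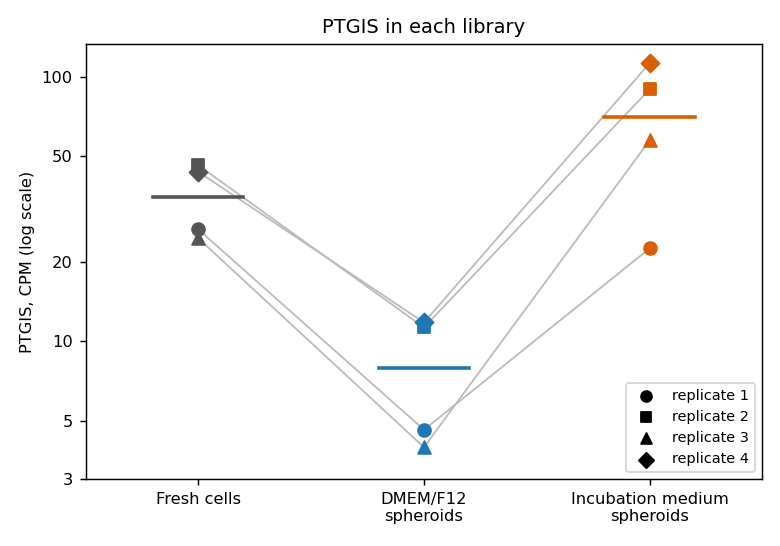
PTGIS in each of the 12 libraries, in CPM on a log axis. Symbols mark the replicate number, horizontal bars the group means and grey lines join libraries with the same number. DMEM/F12 spheroids (3.97 to 11.8 CPM) lie below both other groups, and replicates 2 and 4 lie above 1 and 3 in each group.

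The spread of PTGIS within groups was wide and followed the replicate number. Replicates 2 and 4 were above replicates 1 and 3 in all 3 groups. Within a group, the SD was 32.2% of the mean for fresh cells, 52.9% for DMEM/F12 spheroids and 55.6% for incubation medium spheroids, where the highest library held 5.02 times the level of the lowest. The fitted biological coefficient of variation of PTGIS, 0.418, was above that of 97.7% of tested genes. Among the other prostaglandin genes, PTGS2 (0.483, above 98.7%) was the only one as variable. PTGES (0.242, above 86.9%), PTGER4 (above 67.4%), PTGES3 (above 61%) and PTGS1 (above 54.4%) varied less.

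Read within each replicate number, the difference between the 2 kinds of spheroid had the same direction in 4 of 4. That direction was already fixed, since every DMEM/F12 library lay below every other library. The level of PTGIS in incubation medium spheroids was 4.85, 7.96, 14.5 and 9.57 times that in DMEM/F12 spheroids for numbers 1 to 4. Fresh cells held 5.72, 4.11, 6.17 and 3.71 times the level of the DMEM/F12 spheroids with the same number. Incubation medium spheroids held 0.848, 1.94, 2.35 and 2.58 times the level of fresh cells, so number 1 went the other way from the remaining 3.

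The cyclooxygenases make the substrate on which prostacyclin synthase acts. Leaving out PTGIS, 7 prostaglandin genes had a row and 5 passed the filter on low counts: PTGS1, PTGS2, PTGES, PTGES3 and PTGER4. In DMEM/F12 spheroids against fresh cells all 5 were called, 4 higher and 1 lower, against a background of 70.7% over all tested genes (35.1% higher, 35.7% lower). In incubation medium spheroids against fresh cells 4 were called, 3 higher and 1 lower, against a background of 71.7% (35.8% higher, 35.8% lower). Between the 2 kinds of spheroid 0 of 5 were called by edgeR, with 1 at an unadjusted p under 0.05, against a background of 25% (12.7% higher, 12.3% lower). DESeq2 and limma-voom also called 0 of 5 there, each with 1 at an unadjusted p under 0.05. These fits did not pair the libraries by replicate number. With the replicate number as a block in edgeR, 2 of 5 were called (PTGES and PTGES3).

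Groups did not overlap for 4 of the 5 genes in each comparison with fresh cells, and for 0 of 5 between the spheroids. Over all tested genes the groups did not overlap in 65.4% when DMEM/F12 spheroids were set against fresh cells, in 64.9% for incubation medium and in 26.9% between the spheroids. The median log2 fold change of the 5 was 1.72, 1.14 and 0.27 in those comparisons, against -0.014, -0.0071 and -0.0035 over all tested genes. Since most genes of the table were called against fresh cells, the counts of 5 and 4 are not read as particular to these genes. Both comparisons against fresh cells use the same 4 fresh-cell libraries.

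PTGS1 (ENSSSCG00025012272), the cyclooxygenase that many tissues express steadily, was low throughout. Fresh cells stood at 2.09, 1.61, 0.748 and 0.784 CPM in replicates 1 to 4, from 12, 9, 4 and 4 counts. DMEM/F12 spheroids stood at 3.41, 2.67, 3.70 and 3.12 CPM, and incubation medium spheroids at 2.86, 2.14, 2.58 and 3.22 CPM. Every spheroid library was above every fresh-cell library, though the lowest incubation medium library exceeded the highest fresh one by little. PTGS1 rose by a log2 fold change of 1.27 (SE 0.31, edgeR adjusted p = 0.00191) in DMEM/F12 spheroids and by 1.02 (SE 0.31, edgeR adjusted p = 0.0092) in incubation medium spheroids. Between the spheroids the difference was -0.25 (SE 0.26, edgeR adjusted p = 0.53).

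PTGS2 (ENSSSCG00025068918), the cyclooxygenase induced by growth factors and inflammatory signals, was spread widely within each group. Fresh cells stood at 13.6, 5.92, 3.55 and 1.76 CPM in replicates 1 to 4. DMEM/F12 spheroids stood at 19.0, 21.7, 36.8 and 13.2 CPM, and incubation medium spheroids at 5.49, 15.6, 12.2 and 22.6 CPM. Replicate 1 of the fresh cells was high for its group, and both spheroid groups overlapped with it. PTGS2 rose in DMEM/F12 spheroids, by a log2 fold change of 1.84 (SE 0.51, edgeR adjusted p = 0.00473). Without that fresh-cell library the fold change was 2.58 (edgeR adjusted p = 0.000614).

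For PTGS2 in incubation medium spheroids against fresh cells the log2 fold change was 1.14 (SE 0.52, edgeR adjusted p = 0.0618), which missed the threshold. It passed when fresh-cell replicate 1 was left out (1.87, adjusted p = 0.00639), and likewise when replicate 1 of the incubation medium spheroids was (1.42, adjusted p = 0.0176). Leaving out DMEM/F12 replicate 3 (1.16, adjusted p = 0.0474) or the filter on low counts (1.20, adjusted p = 0.0274) had the same effect. Between the spheroids the difference was -0.70 (SE 0.45, edgeR adjusted p = 0.285), opposite in sign to that of PTGIS.

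**Figure D2:**
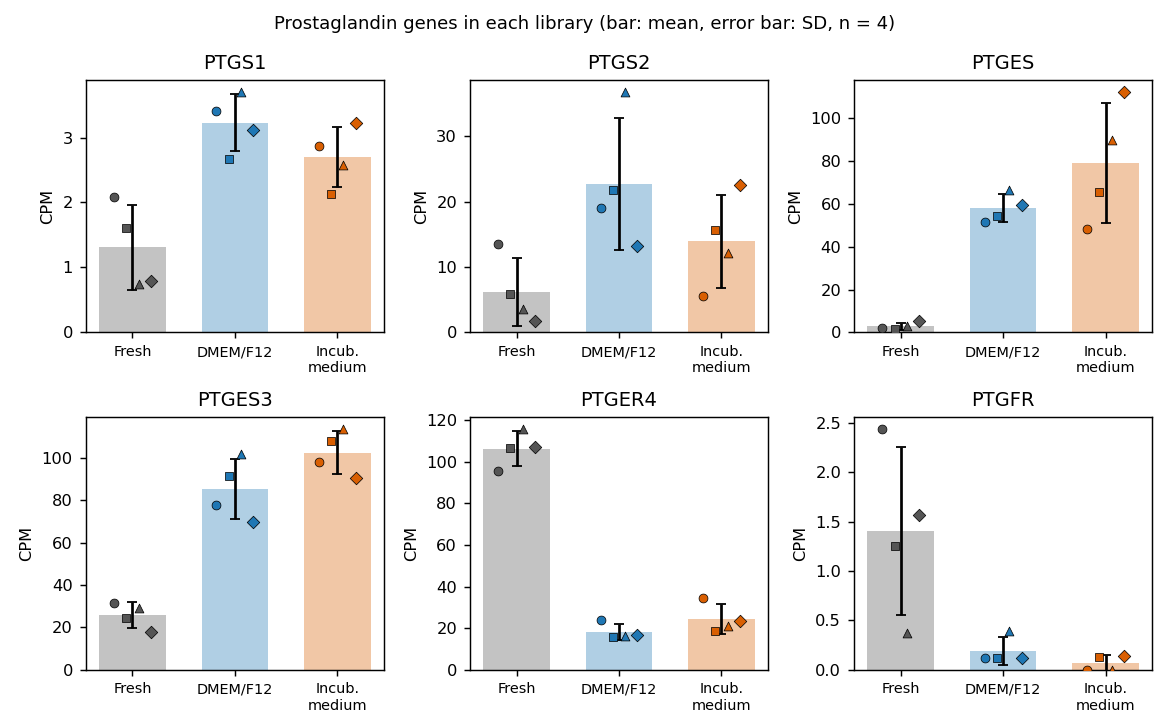
Levels of PTGS1, PTGS2, PTGES, PTGES3, PTGER4 and PTGFR in CPM, one panel per gene. Points are libraries (shape gives the replicate number, as in the plot of PTGIS), bars are group means and error bars the SD (n = 4). PTGES and PTGES3 stand higher and PTGER4 stands lower in both spheroid groups than in fresh cells.

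Prostaglandin E synthases compete with prostacyclin synthase for prostaglandin H2. PTGES (ENSSSCG00025026461), the inducible membrane-bound enzyme that is often paired with PTGS2, showed the largest rise of the set. Fresh cells stood at 1.91, 1.43, 2.99 and 5.10 CPM, from 8 to 26 counts. DMEM/F12 spheroids stood at 51.3, 54.5, 66.4 and 59.3 CPM, and incubation medium spheroids at 48.2, 65.5, 89.7 and 112 CPM. No spheroid library came near the fresh-cell range. PTGES rose 20.5-fold in DMEM/F12 spheroids (log2 fold change 4.35, SE 0.33, edgeR adjusted p = 3.7e-08) and 27.9-fold in incubation medium spheroids (log2 fold change 4.80, SE 0.33, edgeR adjusted p = 1.38e-08).

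Between the spheroids PTGES differed by 0.45 on the log2 scale (SE 0.23, edgeR adjusted p = 0.169), and the groups overlapped. This comparison changed sides with the pairing: with the replicate number as a block the difference was 0.39 (edgeR adjusted p = 0.0399). It also passed the threshold without replicate 1 of the incubation medium spheroids (0.62, adjusted p = 0.0358), the library that was also lowest in PTGIS and PTGS2 within its group.

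PTGES3 (ENSSSCG00025001703) encodes the cytosolic prostaglandin E synthase, a protein also known as the p23 co-chaperone of HSP90. Fresh cells stood at 31.7, 24.4, 29.4 and 17.8 CPM. DMEM/F12 spheroids stood at 78.0, 91.6, 102 and 69.9 CPM, and incubation medium spheroids at 97.9, 108, 114 and 90.8 CPM. All 8 spheroid libraries were above all 4 fresh-cell libraries. The rise was 1.72 on the log2 scale in DMEM/F12 spheroids (SE 0.16, edgeR adjusted p = 3.27e-07) and 1.99 in incubation medium spheroids (SE 0.16, edgeR adjusted p = 7.91e-08). The 2 kinds of spheroid differed by 0.27 (SE 0.15, edgeR adjusted p = 0.213), which passed with the replicate block (0.27, adjusted p = 0.0433). Counts of PTGES3 were not whole in 9 of 12 libraries, so reads were shared with another feature and its level is uncertain. PTGIS and PTGS2 had such counts in 3 libraries each and PTGES in 1.

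Of the receptors, PTGER4 (ENSSSCG00025055852), a prostaglandin E2 receptor that raises cAMP, was the only one of the set with enough counts to test. Fresh cells stood at 95.7, 107, 116 and 107 CPM. DMEM/F12 spheroids stood at 23.8, 15.9, 16.4 and 16.8 CPM, and incubation medium spheroids at 34.6, 18.8, 20.8 and 23.4 CPM. Every spheroid library held less PTGER4 than every fresh-cell library. PTGER4 fell by 2.54 on the log2 scale in DMEM/F12 spheroids (SE 0.18, edgeR adjusted p = 1.66e-08) and by 2.12 in incubation medium spheroids (SE 0.17, edgeR adjusted p = 7.41e-08). The spheroids differed by 0.42 (SE 0.18, edgeR adjusted p = 0.101). Without replicate 1 of the DMEM/F12 spheroids the difference was 0.58 (adjusted p = 0.0316). In both spheroid groups replicate 1 was the highest for PTGER4, so leaving out the DMEM/F12 library alone kept its high counterpart with the same number.

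PTGFR (ENSSSCG00025023153), the receptor for prostaglandin F2α, was too low for the test. Replicates 1 to 4 of the fresh cells held 14, 7, 2 and 8 counts, or 2.44, 1.26, 0.374 and 1.57 CPM. DMEM/F12 spheroids held 1, 1, 3 and 1 counts, and incubation medium spheroids 0, 1, 0 and 1. Against a floor of 3 counts per library, the mean of PTGFR was at least 3.83-fold lower in DMEM/F12 spheroids, whose range overlapped that of fresh cells, and at least 3.68-fold lower in incubation medium spheroids, whose range did not. With no filter on low counts PTGFR passed the edgeR threshold in both comparisons with fresh cells (adjusted p = 0.0012 and 0.000131).

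PTGIR (ENSSSCG00025018309) encodes the receptor through which prostacyclin itself signals. It held 0 counts in all 4 fresh-cell libraries and all 4 DMEM/F12 libraries, and 1 count in each of incubation medium replicates 2 and 4. A count of 0 allows up to 3 counts, so PTGIR was not detectable at this depth where it was 0, and no fold change is given. These limits reflect counting alone, because reads copied by PCR with no stated molecular identifiers cannot be taken as separate molecules.

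Across the 12 libraries no other prostaglandin gene followed PTGIS closely. Pearson's r of log2 CPM with PTGIS was 0.27 for PTGER4, -0.13 for PTGES, -0.16 for PTGES3, -0.34 for PTGS2 and -0.36 for PTGS1. Computed on deviations from the group means, r was 0.33 for PTGES, 0.14 for PTGS2, -0.17 for PTGS1, -0.37 for PTGES3 and -0.64 for PTGER4. These are descriptions over 12 libraries that share 3 groups and, possibly, the source behind a replicate number. The order DMEM/F12 below fresh below incubation medium in the group means belonged to PTGIS alone among the 6 tested genes of the set.

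Upstream of the cyclooxygenases, arachidonate is released from lipids by phospholipases and put back by acyl-CoA synthetases and acyltransferases. Of 19 symbols listed for this step, 12 had a row and 11 were tested. Against fresh cells 6 rose and 3 fell in DMEM/F12 spheroids (median log2 fold change 0.58), and 7 rose and 2 fell in incubation medium spheroids (median 0.61). That is 9 of 11 in each, where 70.7% and 71.7% of all tested genes were called. Between the spheroids 4 were higher in incubation medium, 1 was lower and 6 were not called (median 0.22), next to 25% called over all tested genes. These 5 calls became 3 with library totals in place of TMM, and 3 when either replicate 2 or replicate 4 of the DMEM/F12 spheroids was left out. MGLL, the monoacylglycerol lipase that frees arachidonate from 2-arachidonoylglycerol, went from 0.836 ± 0.464 CPM in fresh cells to 18.9 ± 5.95 in DMEM/F12 and 14.6 ± 2.93 in incubation medium spheroids (SD, n = 4). The log2 fold changes of MGLL were 4.49 (edgeR adjusted p = 7.83e-08) and 4.11 (edgeR adjusted p = 2.23e-07).

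ACSL4, an acyl-CoA synthetase that prefers arachidonate, stood at 52.3 ± 2.95 CPM in fresh cells, 131 ± 17.0 in DMEM/F12 and 153 ± 15.7 in incubation medium spheroids (SD, n = 4). It rose by 1.32 (edgeR adjusted p = 6.13e-08) and 1.55 (edgeR adjusted p = 1.42e-08) on the log2 scale. LPCAT3, which puts arachidonate into phospholipids, rose in both kinds of spheroid and was 0.41 higher on the log2 scale in incubation medium than in DMEM/F12 (edgeR adjusted p = 0.0085). PLAAT3, a phospholipase A and acyltransferase, went the other way between the media: 122 ± 8.48 CPM in DMEM/F12 spheroids against 68.6 ± 2.5 in incubation medium spheroids (SD, n = 4; log2 fold change -0.83, edgeR adjusted p = 7.28e-06). ANXA1, an annexin known as an inhibitor of phospholipase A2, rose by 1.19 (edgeR adjusted p = 1.22e-05) and 1.61 (edgeR adjusted p = 6.85e-07). PLA2G7, which cleaves platelet-activating factor and oxidised phospholipids, fell by 2.26 and by 2.48 on the log2 scale (edgeR adjusted p = 2.89e-07 and 1.3e-07). Its counts were fractional in 75% of the libraries.

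Other terminal synthases draw on the same intermediate or convert its products. Of 10 symbols 4 had a row and 3 were tested. CBR1, a carbonyl reductase that can turn prostaglandin E2 into prostaglandin F2α, fell by 0.56 in DMEM/F12 spheroids (edgeR adjusted p = 4.56e-05) and by 0.75 in incubation medium spheroids (edgeR adjusted p = 2.67e-06). Its paralog CBR3 was at or under the floor in all fresh-cell libraries and passed the filter on low counts through spheroid libraries alone. It was at least 21.0-fold higher in DMEM/F12 spheroids (edgeR adjusted p = 2.01e-07) and at least 6.80-fold higher in incubation medium spheroids (edgeR adjusted p = 2.12e-05). CBR3 was lower in incubation medium than in DMEM/F12 spheroids, 3.76 ± 1.17 against 11.6 ± 4.31 CPM (SD, n = 4; log2 fold change -1.62, edgeR adjusted p = 0.00139).

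AKR1C3, an aldo-keto reductase with prostaglandin F synthase activity, was the one of these 3 that was called higher in incubation medium than in DMEM/F12 spheroids. It stood at 9.29 ± 2.49 CPM in fresh cells, 11.8 ± 4.78 in DMEM/F12 and 43.8 ± 14.4 in incubation medium spheroids (SD, n = 4). AKR1C3 rose by 2.23 on the log2 scale against fresh cells (edgeR adjusted p = 1.34e-05) and by 1.89 against DMEM/F12 spheroids (edgeR adjusted p = 0.000321). Its counts were not whole in 91.7% of libraries, so reads were shared with another feature and the level is uncertain. TBXAS1, thromboxane synthase, was not tested, at 0.692 ± 0.285 CPM in fresh cells (SD, n = 4) and at or under the floor in all spheroid libraries. The median log2 fold change of the 3 tested synthases was 0.34 in DMEM/F12 and 2.23 in incubation medium spheroids against fresh cells, and -0.19 between the spheroids, and it is the same with CBR3 at its bound.

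Transport and breakdown end the signal. Of 9 symbols 7 had a row and 6 were tested, of which 2 rose and 2 fell in DMEM/F12 spheroids, and 2 rose and 3 fell in incubation medium spheroids (medians -0.05 and -0.11, the same with HPGD at its bound). These shares, 4 of 6 and 5 of 6, are near the 70.7% and 71.7% of all tested genes. Between the spheroids 1 was higher and 1 lower (median -0.13), a share of 33.3% next to 25% of all tested genes. HPGD, which starts the inactivation of prostaglandins E2 and F2α, was at or under the floor in both spheroid groups. Its level in fresh cells was 1.93 ± 0.571 CPM (SD, n = 4), so it was at least 5.26-fold lower in DMEM/F12 spheroids (edgeR adjusted p = 9.82e-05) and at least 5.05-fold lower in incubation medium spheroids (edgeR adjusted p = 5.26e-05). HPGD passed the filter on low counts through its fresh-cell libraries alone. It also falls outside the rule that chose the named genes and was added after its values were seen. Its adjusted p-values are therefore a description.

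The reductases PTGR1 and PTGR2, which act on the 15-keto products, moved apart. PTGR1 went from 14.5 ± 1.43 CPM in fresh cells to 40.6 ± 7.31 in DMEM/F12 and 37.2 ± 12.2 in incubation medium spheroids (SD, n = 4), a rise of 1.49 and 1.36 on the log2 scale (edgeR adjusted p = 1.46e-05 and 3.34e-05). PTGR2 went from 90.1 ± 4.04 CPM to 49.3 ± 5.38 and 70.1 ± 8.17, a fall of 0.87 and of 0.36 (SD, n = 4; log2 fold changes -0.87 and -0.36, edgeR adjusted p = 2.4e-06 and 0.00416). PTGR2 was also higher in incubation medium than in DMEM/F12 spheroids, by 0.51 (edgeR adjusted p = 0.00197). SLCO3A1, a transporter that carries prostaglandins, was lower in incubation medium than in both other groups (log2 fold change -0.91 against fresh cells, edgeR adjusted p = 9.18e-06, and -0.71 against DMEM/F12, edgeR adjusted p = 0.000643).

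**Figure D3:**
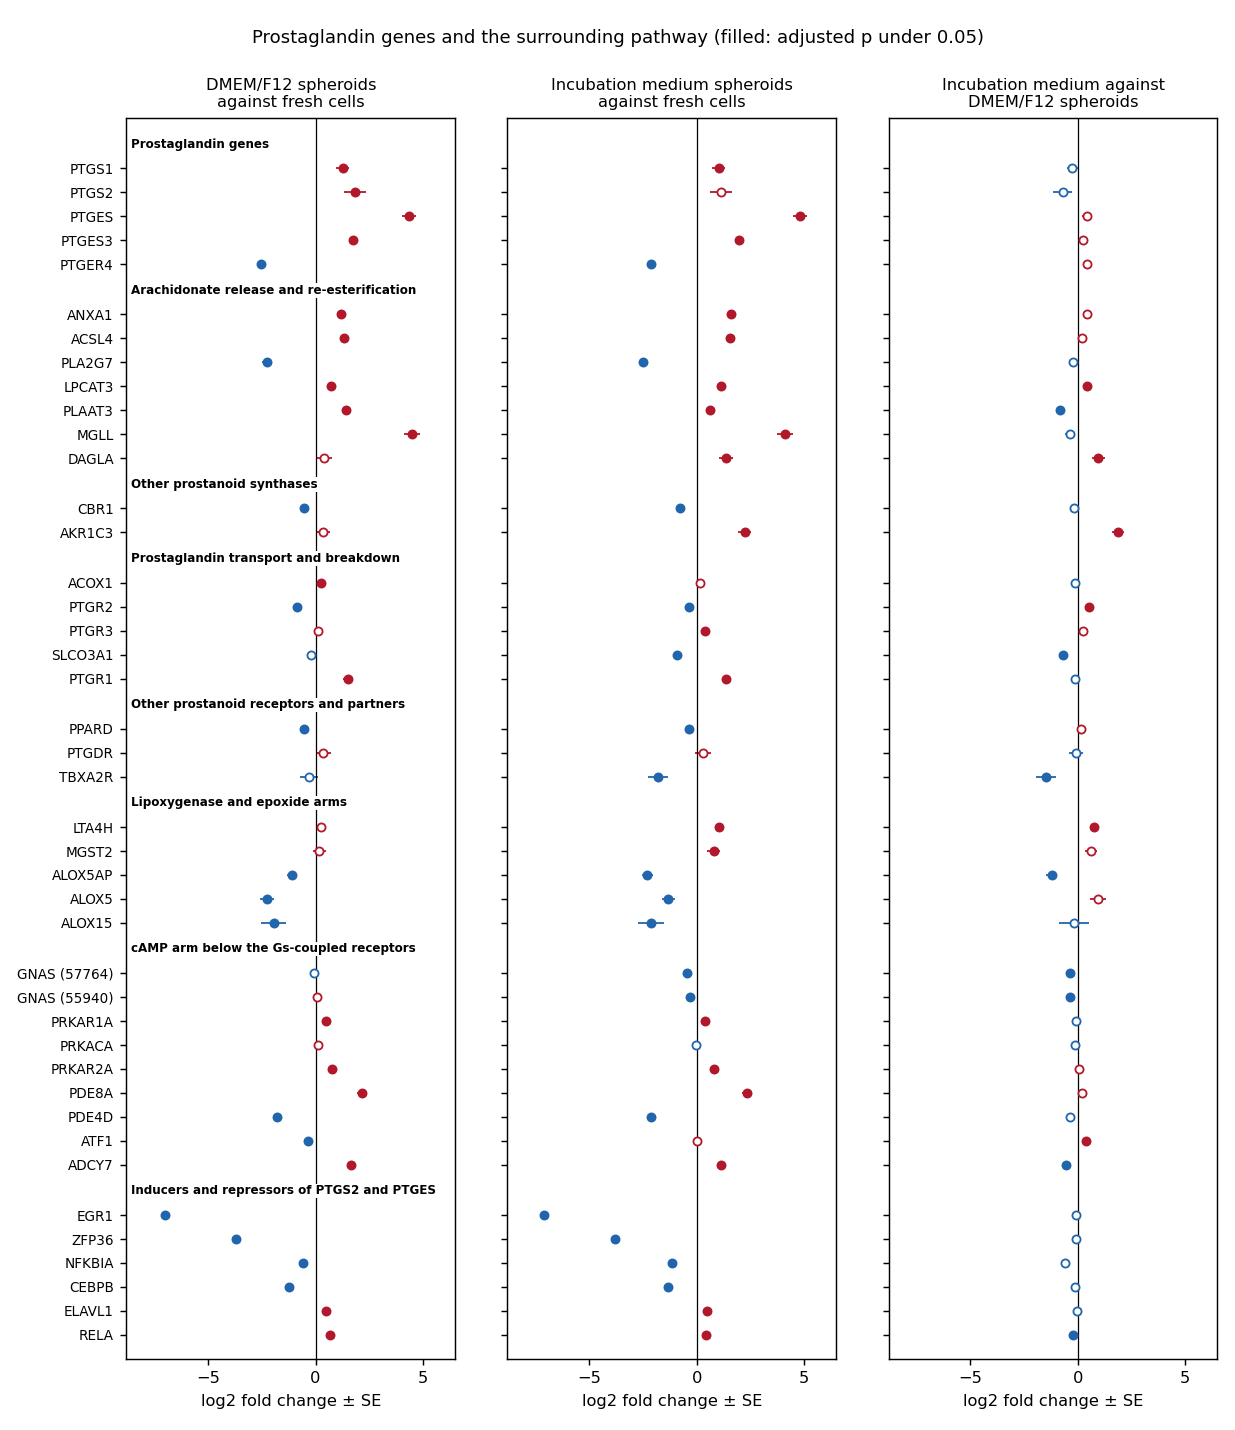
Log2 fold changes with their SE for the tested prostaglandin genes and the named genes of 7 surrounding lists, in the 3 comparisons. Filled points are called (edgeR adjusted p under 0.05), open points are not, red is above 0 and blue below. Genes under the floor in a group, such as CBR3, are not drawn. EGR1 lies farthest below 0 in both comparisons with fresh cells, at -6.99 and -7.09.

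Most other prostanoid receptors were too low to test: of 8 symbols for receptors and partners 7 had a row and 3 were tested. Against fresh cells 0 rose and 1 fell in DMEM/F12 spheroids, and 0 rose and 2 fell in incubation medium spheroids (medians -0.31 and -0.36), while 70.7% and 71.7% of all tested genes were called. The 2 became 1 in several alternatives, among them leaving out fresh-cell replicate 2 or 4, or incubation medium replicate 1, 2 or 3. Between the spheroids 1 was lower (median -0.08), a call that was lost in most of the alternatives. Over all tested genes 25% were called there. PTGER1, a receptor for prostaglandin E2 that was not tested, stood at 1.73 ± 0.688 CPM in fresh cells (SD, n = 4). It was at least 4.71-fold lower in DMEM/F12 spheroids and at least 4.52-fold lower in incubation medium spheroids, with no overlap in either. PTGDR, a prostaglandin D2 receptor, was not called in any comparison, with means of 3.26, 4.25 and 4.03 CPM in fresh cells, DMEM/F12 spheroids and incubation medium spheroids.

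The lipoxygenase arm competes for the same arachidonate and makes leukotrienes. Of 17 symbols 10 had a row and 5 were tested, of which 0 rose and 3 fell in DMEM/F12 spheroids (median -1.10), and 2 rose and 3 fell in incubation medium spheroids (median -1.31). Over all tested genes 70.7% and 71.7% were called in these comparisons, and 25% between the spheroids. Between the spheroids 1 was higher and 1 lower (median 0.61), and with the replicate block 4 were called. ALOX5, 5-lipoxygenase, fell by 2.25 and by 1.31 (edgeR adjusted p = 3.56e-05 and 0.00175). Its helper protein ALOX5AP stood at 15.8 ± 3.49 CPM in fresh cells, 7.36 ± 1.25 in DMEM/F12 and 3.22 ± 1.17 in incubation medium spheroids (SD, n = 4), and fell between the spheroids too (log2 fold change -1.20, edgeR adjusted p = 0.00382). LTA4H, the hydrolase that makes leukotriene B4, was higher in incubation medium: 222 ± 30.8 CPM against 129 ± 6.39 in DMEM/F12 spheroids and 107 ± 19.9 in fresh cells (SD, n = 4). The log2 fold changes of LTA4H were 1.05 against fresh cells (edgeR adjusted p = 5.4e-06) and 0.78 against DMEM/F12 spheroids (edgeR adjusted p = 0.000597). Between DMEM/F12 spheroids and fresh cells LTA4H differed by 0.27 (edgeR adjusted p = 0.0797), which passed with the replicate block (0.28, adjusted p = 0.0119), without fresh-cell replicate 2 (0.35, adjusted p = 0.0316) and without incubation medium replicate 3 (0.28, adjusted p = 0.0465).

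The prostacyclin receptor and PTGER4 act through cAMP. Of 21 symbols for this arm 17 had a row, GNAS had 2, and all 18 rows were tested. In DMEM/F12 spheroids 5 rose, 4 fell and 9 were not called against fresh cells (median -0.01), and in incubation medium spheroids 4 rose, 8 fell and 6 were not called (median -0.38). The called shares, 50% and 66.7%, were below the 70.7% and 71.7% of all tested genes. PDE4D, a phosphodiesterase that breaks down cAMP, fell from 47.3 ± 4.94 CPM in fresh cells to 13.5 ± 2.08 and 10.7 ± 1.68 in the spheroids (SD, n = 4; log2 fold changes -1.80 and -2.14, edgeR adjusted p = 3.36e-08 and 8.3e-09). PDE8A, another cAMP phosphodiesterase, rose from 4.33 ± 1.68 CPM to 19.3 ± 2.43 and 22.0 ± 3.64 (SD, n = 4; log2 fold changes 2.15 and 2.33, edgeR adjusted p = 9.59e-07 and 3.85e-07). ADCY7, an adenylyl cyclase, rose by 1.67 and 1.12 (edgeR adjusted p = 4.31e-08 and 2.73e-06) and was lower in incubation medium than in DMEM/F12 spheroids (-0.55, edgeR adjusted p = 0.00308). Between the spheroids 5 of the 18 rows were called, 1 higher and 4 lower (median -0.33), a share of 27.8% next to 25% of all tested genes. Both rows of GNAS, which stood at similar levels, were among the 4 lower (log2 fold changes -0.38 and -0.37, edgeR adjusted p = 0.0211 and 0.0229). Both were also among the 8 that fell in incubation medium spheroids against fresh cells, so this gene is counted on 2 rows in each. The count of 5 rows called between the spheroids became 9 with the replicate block and 8 with library totals in place of TMM. It was 3 without any one of DMEM/F12 replicate 1, incubation medium replicate 2 and incubation medium replicate 3. In those fits both GNAS rows lost their call between the spheroids.

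Of the transcription factors and RNA-binding proteins known to induce or repress PTGS2 and PTGES, 12 of 16 symbols had a row and 11 were tested. Against fresh cells 3 rose and 7 fell in DMEM/F12 spheroids (median -1.21), and 4 rose and 7 fell in incubation medium spheroids (median -1.14). Called were 10 of 11 and 11 of 11, where 70.7% and 71.7% of all tested genes were called. EGR1, an immediate early transcription factor known to act on the PTGES promoter, stood at 6453 ± 847 CPM in fresh cells, 50.6 ± 8.07 in DMEM/F12 and 47.3 ± 6.37 in incubation medium spheroids (SD, n = 4). It fell by 6.99 and by 7.09 on the log2 scale (edgeR adjusted p = 1.19e-12 and 1.41e-12). Any link between EGR1 and the levels of PTGES or PTGS2 was not tested. ZFP36, which destabilises PTGS2 mRNA, fell by 3.70 and by 3.79 (edgeR adjusted p = 3.43e-11 and 2.48e-11), and CEBPB fell by 1.21 and by 1.32 (edgeR adjusted p = 4.26e-06 and 1.86e-06). RELA, a subunit of NF-κB, rose by 0.66 and 0.43 (edgeR adjusted p = 5.24e-07 and 3.54e-05), and ELAVL1, which stabilises such mRNAs, by 0.50 and 0.49 (edgeR adjusted p = 2.86e-05 and 3.7e-05). Between the spheroids 1 of 11 was called, lower, against 25% of all tested genes, and 2 were called with the replicate block. The count was also 2 with DESeq2, with limma-voom, with library totals in place of TMM, and when DMEM/F12 replicate 1 was left out, and 0 when DMEM/F12 replicate 4 or incubation medium replicate 1 was.

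PTGIS is known from endothelium, smooth muscle and stroma as well as from epithelium, so the markers of those cells are given beside it. Markers of fibroblasts and stroma (13 of 18 symbols with a row) summed to 1886 to 2360 CPM in fresh cells, 454 to 632 in DMEM/F12 and 306 to 375 in incubation medium spheroids. Most of that sum was MGP and SPARC, and the members went both ways: of 8 tested, 2 rose and 3 fell in DMEM/F12 spheroids against fresh cells, and 2 rose and 6 fell in incubation medium spheroids. Over all tested genes 70.7% and 71.7% were called in these comparisons. THY1, named after its values were seen, was at most 0.696 CPM in fresh cells and 2.28 to 6.56 CPM in incubation medium spheroids, a rise (edgeR adjusted p = 0.000321). COL5A1, also named after its values were seen, was at or under the floor in all fresh-cell libraries, at most 0.392 CPM. It rose to 4.81 to 11.4 CPM in incubation medium spheroids (edgeR adjusted p = 1.82e-07), and passed the filter through spheroid libraries alone. COL1A1 was at most 7.52 CPM in every incubation medium library and 16.3 to 48.0 CPM in fresh cells. Between the spheroids 0 of the 8 were called higher in incubation medium and 5 lower, next to 25% of all tested genes called. COL1A2 was not called there (edgeR adjusted p = 0.0758), at 2.96 to 6.27 CPM against 1.44 to 2.78 CPM in DMEM/F12 spheroids. MGP stood at 1339 to 1882 CPM in fresh cells and at 5.37 to 7.51 CPM in incubation medium spheroids. FAP was at 0 in all fresh-cell libraries, and COL6A1 in all incubation medium libraries.

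Smooth muscle and pericyte markers (9 of 12 symbols) summed to 316 to 429 CPM in fresh cells, 1111 to 1266 in DMEM/F12 and 277 to 585 in incubation medium spheroids. The sum was mostly TAGLN, at 193 to 324, 1045 to 1187 and 225 to 529 CPM in the same order. Of 7 tested, 2 rose and 3 fell in DMEM/F12 spheroids against fresh cells (median log2 fold change -0.27), with MYLK and NOTCH3 among those that fell. That is a share of 71.4%, next to 70.7% of all tested genes. DES and RGS5 were at 0 in fresh cells. Endothelial markers (10 of 14) summed to 49.6 to 64.9, 145 to 260 and 99.4 to 164 CPM in the same order of groups. CDH5, at 60.8 to 176 CPM in DMEM/F12 spheroids, and KDR, at 47.0 to 119 CPM, carried most of it, and both rose against fresh cells in both kinds of spheroid while PECAM1 fell in both. VWF, another marker of the list, was at 0 in all fresh-cell and DMEM/F12 libraries and at most 0.134 CPM in incubation medium spheroids. ERG was at 0 in all incubation medium libraries.

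Leukocyte markers (9 of 13) summed to 481 to 542, 435 to 491 and 514 to 609 CPM, and most of that sum was CD79A. The remaining 8 summed to 41.1 to 61.3, 13.3 to 39.5 and 10.5 to 33.9 CPM. Mast cell markers (2 of 5) reached at most 1.87 CPM in any library. Mesothelial markers (4 of 7) summed to 274 to 333, 283 to 435 and 198 to 264 CPM, with BNC1 at 0 in all 12 libraries and CALB2 at 0 in fresh cells and incubation medium spheroids.

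The summed markers of the oviduct's multiciliated and secretory cells stood higher in every fresh-cell library than in any spheroid library. Those of multiciliated cells (6 of 11) summed to 1042 to 1214 CPM in fresh cells, 124 to 314 in DMEM/F12 and 125 to 223 in incubation medium spheroids. Those of secretory cells (4 of 7, OVGP1 among them) summed to 18940 to 29980, 986 to 2019 and 964 to 2012 CPM. OVGP1 and SLPI carried the secretory sum in fresh cells, while MUC1 rose in both kinds of spheroid, from 159 ± 15.1 CPM to 545 ± 45.9 and 474 ± 23.5 (SD, n = 4). Among these 9 lists, only the leukocyte sum, through CD79A, was on average lowest in DMEM/F12 and highest in incubation medium spheroids, the order of the PTGIS means. Without CD79A the leukocyte sum was highest in fresh cells (41.1 to 61.3 CPM) and did not have that order. The part of any of these cells in the PTGIS values was not tested.

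**Figure D4:**
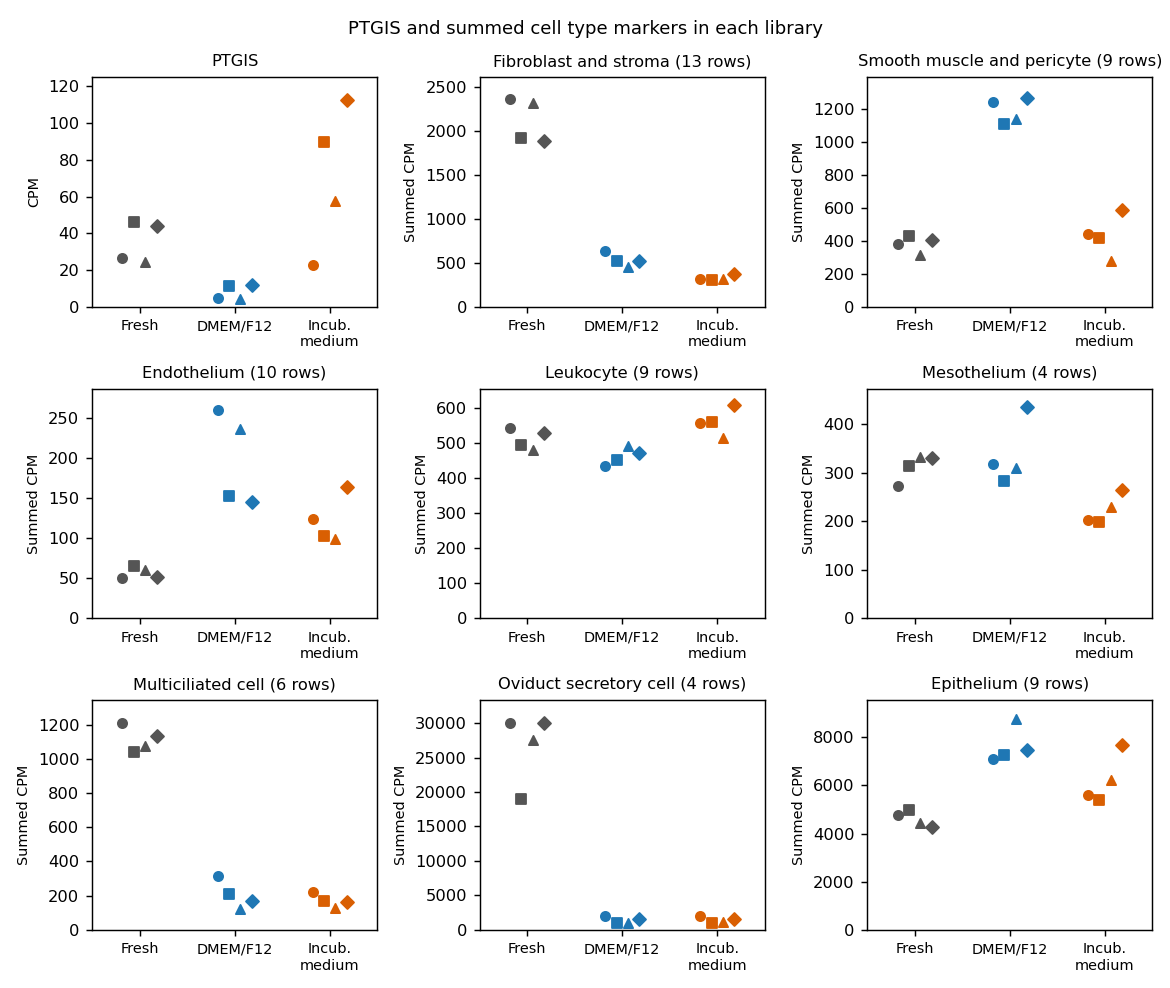
PTGIS (CPM) and the summed level of 8 marker lists (CPM, number of rows in each title) in the 12 libraries, with shapes for the replicate number. The stromal sum is lowest in incubation medium spheroids (306 to 375 CPM), and the smooth muscle sum, mostly TAGLN, is highest in DMEM/F12 spheroids (1111 to 1266 CPM).

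The genes whose pattern was most like that of PTGIS were ranked by Pearson's r of log2 CPM over the 12 libraries, among 7958 tested genes with a symbol and a mean of at least 5 CPM. The first 8 were CHCHD10, ACSL1, TSTD3, AMZ2, ASCC1, IRF1, PSME1 and FCGBP, with r from 0.92 down to 0.89. CHCHD10, a mitochondrial protein, averaged 52.9 ± 6.94 CPM in fresh cells, 38.0 ± 3.47 in DMEM/F12 and 62.5 ± 4.87 in incubation medium spheroids (SD, n = 4). ACSL1, a long-chain acyl-CoA synthetase, averaged 38.1 ± 4.65, 29.4 ± 1.67 and 44.7 ± 5.12 CPM in those groups. IRF1, a transcription factor of the interferon response, averaged 57.8 ± 9.30, 35.2 ± 4.90 and 59.7 ± 5.15 CPM. PSME1, a subunit of the proteasome activator, averaged 361 ± 39.8, 235 ± 30.9 and 353 ± 22.5 CPM. The low level of DMEM/F12 spheroids in these genes follows from how they were ranked. Their range between groups was much smaller than that of PTGIS.

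A second ranking used the deviations from the group means, which leaves out the differences between groups. The first 5 were TNFSF12 (r 0.93), PTER (0.92), ARHGAP19 (0.91), HES4 (0.90) and C2H11orf68 (0.89). TNFSF12, a cytokine of the TNF family, was lowest in fresh cells, at 10.3 ± 2.12 CPM against 23.3 ± 3.95 in DMEM/F12 and 18.2 ± 3.32 in incubation medium spheroids (SD, n = 4). PTER, a phosphotriesterase-related protein, was highest there, at 22.8 ± 8.38 against 10.5 ± 3.36 and 8.51 ± 4.06 CPM (SD, n = 4). The 2 rankings shared none of the 13 genes, and ARHGAP19 came nearest to both with an r of 0.86 on log2 CPM.

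**Figure D5:**
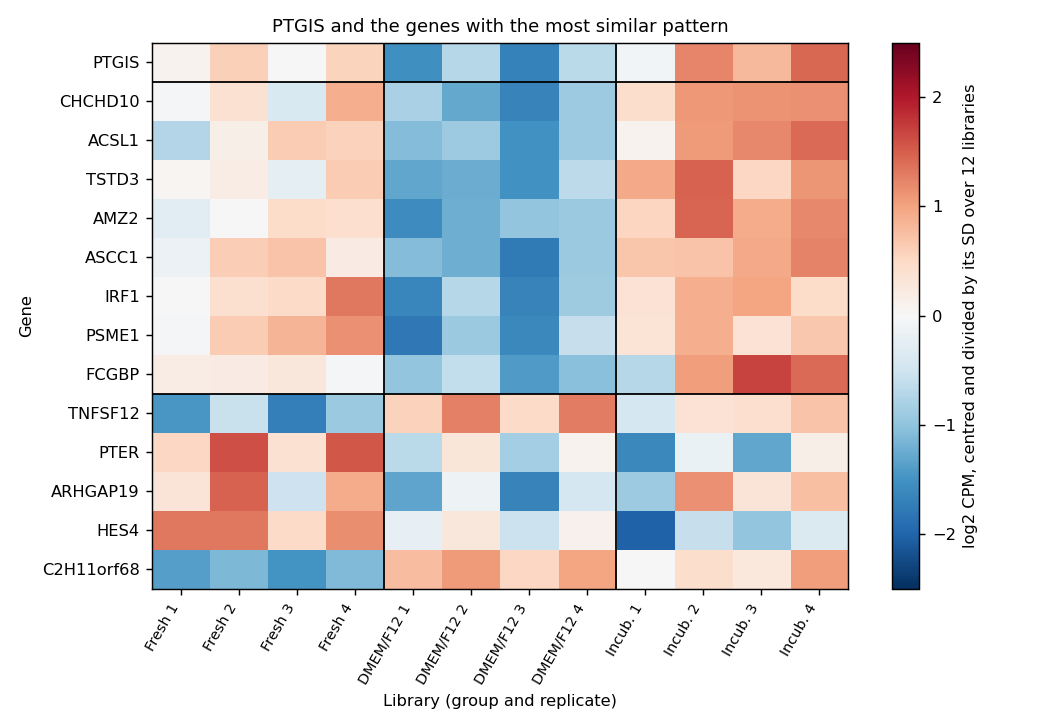
Log2 CPM of PTGIS and the 13 genes with the highest r to it, each centred and divided by its SD over the 12 libraries (colour scale in SD). Columns are libraries by group and replicate. The upper 8 genes were ranked by r with PTGIS over the 12 libraries, and so share its low level in the 4 DMEM/F12 libraries. The lower 5 were ranked by their differences between replicates within groups.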

How the data were processed

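RNA of fresh cells and spheroids was measured by 3′ mRNA sequencing with oligo-dT priming, per the labels' protocols. Tools named in the submitters' processing notes are fastp 0.24.0, STAR 2.7.11, SAMtools 1.22.1, featureCounts and Subread 2.1.1; the genome build is not given in the sources used here. The authors deposited expected counts per gene, of which 19.1 to 20.5% of the nonzero values per library were not whole, because reads were shared between features. CPM values, also deposited by the authors, were not used for tests. The design assumed whole counts, so the expected counts were rounded; 92 spike-in rows were left out. No deposited column was without a sample (0). Names come from the deposited table, since 0 of its identifiers matched the pig gene tables, and no coordinates or sequences are printed.

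Genes were tested with edgeR 4.0.16 (R 4.3.3), with filterByExpr applied by group, TMM scaling, 1 fit of 12 libraries with a mean per group, quasi-likelihood F-tests and Benjamini-Hochberg adjustment over 14070 genes. SEs are the log2 fold change over the square root of F. The fit was tested on simulated data. The median over tested genes of the fitted biological coefficient of variation, the measure given above for PTGIS, was 0.129. Libraries of one group differed beyond counting noise (chi-square of 5.61 to 16.1 for each degree of freedom), so none was merged.

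The members and lists were chosen with earlier results of these data known. From each list the text names up to 5 genes by mean CPM and the called genes with the largest rise and fall at a mean of at least 5 CPM; genes whose call changed with a setting are counted but mostly not described. Same-numbered libraries deviated together over the tested genes (correlations 0.196 to 0.516 in 12 of 12 pairs, against -0.318 to 0.0233 for other numbers). The main fit and its adjusted p-values did not use this pairing, which entered only as the replicate block among the alternatives. The pairing comes from the data, since the labels do not say what a number marks.

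Alternatives were RLE or no scaling, no filter or a mean of at least 10 counts, DESeq2 1.42.0, limma-voom 3.58.1, only the groups compared, a replicate block, counts rounded down, and each library left out. Applying them to the list counts was chosen after seeing the data.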

Additional observations from a re-analysis of the deposited data

Results flagged for a closer look

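Of 19 groups of 4 libraries examined for a single library far from the rest, 1 was marked, and chance marks about 1 in 20 such groups. PTGER4 in replicate 1 of the DMEM/F12 spheroids stood at 23.8 CPM, above the other 3 libraries at 15.9 to 16.8 CPM. The gap to the nearest library was 0.887 of the range of the group, above the 95% critical value of Dixon's test. Without that library the log2 difference in PTGER4 between incubation medium and DMEM/F12 spheroids was 0.58 (edgeR adjusted p = 0.0316), against 0.42 (adjusted p = 0.101) with it. That fit kept replicate 1 of the incubation medium spheroids, also the highest of its group at 34.6 CPM. Within replicate numbers 1 to 4, incubation medium spheroids held 1.45, 1.18, 1.27 and 1.39 times the DMEM/F12 level. With the replicate block PTGER4 was not called between the spheroids.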

How the results depend on the processing

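For the 5 prostaglandin genes tested, 307 of 315 log2 fold changes under the alternatives kept their direction and their side of the threshold. The other 8 passed the threshold where the reported value had not, and 0 changed sign. Between the 2 kinds of spheroid the number of these genes called was 2 with the replicate block (PTGES and PTGES3), against 0 without it, and 0 to 1 when each library was left out in turn. The replicate block raised the calls over all genes in that comparison from 3522 to 4613, and changed no other call among the prostaglandin genes. Against fresh cells 5 to 6 were called in DMEM/F12 spheroids and 4 to 6 in incubation medium spheroids. The count of 6 came only with no filter on low counts, where 7 prostaglandin genes were tested in place of 5. The PTGIS difference ran from -2.37 to -1.91 (DMEM/F12 against fresh), 0.70 to 1.31 (incubation medium against fresh) and 2.82 to 3.44 (between spheroids). Library totals in place of TMM moved the median of all genes by less than 0.1 on the log2 scale. Depth limits PTGS1, PTGFR and PTGIR.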
